A study of Mus musculus with 6 samples.

Results

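Acute phase and antimicrobial secreted proteins are a set of 10 genes, Saa3, Hp, Orm1, Alb, Cp, C3, Agt, Lcn2, Reg3g and Slpi, of which 9 were measured here out of 19938 genes in all. A member is a gene to which the array annotation gives a probe set of its own. Each of the 9 had 1 such probe set, and C3 is not analysed here. The members were chosen by their measured FR minus DMSO changes on these arrays. Those changes are given below as a description with their errors and without a test.

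The arrays carried total RNA from cultured dermal cells of neonatal C57BL/6 mice, taken after 2 days. Of the 6 arrays, 3 are titled DMSO, the usual solvent of both compounds, and 3 are titled FR. The FR cells received forskolin and RepSox together, at 20 µM each, and the DMSO cells received neither compound, per the series design. Forskolin is a plant diterpene that switches on adenylyl cyclase, the enzyme that makes cyclic AMP, and RepSox blocks the kinase of the type I TGF-β receptor. No arm with 1 compound alone was analysed here, so effects of forskolin and RepSox cannot be told apart. The labels do not say whether the replicates came from separate cultures or litters, and the errors cover the spread between these arrays. In bulk RNA, fewer cells of a type and less RNA per cell cannot be told apart.

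Acute phase proteins are plasma proteins whose output changes in inflammation or injury, mostly from the liver but also from fat, skin and other tissues. Interleukin-6 acts on their genes through the transcription factor STAT3, interleukin-1 and tumour necrosis factor act through NF-κB, and C/EBP factors bind many of their promoters. Barrier tissues such as skin also secrete proteins that hold back microbes, among them lipocalin-2, which withholds iron, Reg3 lectins, which bind bacterial cell walls, and SLPI, which inhibits neutrophil elastase.

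The FR cells carried higher levels of 8 of the 9 measured members on every array. Agt, Reg3g, Slpi, Alb, Saa3 and Lcn2 differed from DMSO by 2.36 to 3.03 on the log2 scale, Hp by 1.54 and Orm1 by 0.70, while Cp differed by -0.12 with overlapping groups. All levels below are log2 RMA values, on which a difference of 1 is 2-fold, and changes are given as FR minus DMSO with the standard error (SE) from limma, n = 3 arrays a group. A level is set against olfactory receptor genes, taken as background for a skin culture: the 95th percentile of 1027 such genes lay between 5.63 and 5.68 on the DMSO arrays and between 5.81 and 6.01 on the FR arrays. A gene under that mark on every array of a group is called within background there, and its fold is then a bound, computed against the mark. These olfactory receptor genes had a median change of 0.14 themselves.

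The bases before the starts of members are shown as a description. The members were chosen by this contrast, so their differing together gives no ground for a shared motif. Each line gives the 250 bases before a RefSeq transcript start (GRCm38.p6, 5′ to 3′ on the gene's strand) for the 6 members whose change was over 2. Capitals mark matches on either strand to a C/EBP motif (TTNNGNAA), a STAT motif (TTCNNNGAA), the NF-κB motif, a cyclic AMP response element (half-site TGACG, full site TGACGTCA) or a TATA box (TATAAA).
Saa3 (chr7:46715677-46715926, minus strand): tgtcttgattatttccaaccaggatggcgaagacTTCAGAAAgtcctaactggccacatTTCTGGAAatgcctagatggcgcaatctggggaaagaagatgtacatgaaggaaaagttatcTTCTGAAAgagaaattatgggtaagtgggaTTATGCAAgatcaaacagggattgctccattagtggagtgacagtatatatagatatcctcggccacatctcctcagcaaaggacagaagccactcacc
Alb (chr5:90460620-90460869, plus strand): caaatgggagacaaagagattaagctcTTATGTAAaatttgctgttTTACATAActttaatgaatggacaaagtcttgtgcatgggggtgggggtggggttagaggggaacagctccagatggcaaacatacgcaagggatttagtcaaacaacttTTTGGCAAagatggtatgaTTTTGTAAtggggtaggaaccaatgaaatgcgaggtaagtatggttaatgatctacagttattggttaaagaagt
Agt (chr8:124569707-124569956, minus strand): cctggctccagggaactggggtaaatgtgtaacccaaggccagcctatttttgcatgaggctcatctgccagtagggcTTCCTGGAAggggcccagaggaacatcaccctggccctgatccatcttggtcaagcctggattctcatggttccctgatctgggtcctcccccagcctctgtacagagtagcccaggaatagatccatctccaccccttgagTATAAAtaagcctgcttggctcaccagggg
Lcn2 (chr2:32387740-32387989, minus strand): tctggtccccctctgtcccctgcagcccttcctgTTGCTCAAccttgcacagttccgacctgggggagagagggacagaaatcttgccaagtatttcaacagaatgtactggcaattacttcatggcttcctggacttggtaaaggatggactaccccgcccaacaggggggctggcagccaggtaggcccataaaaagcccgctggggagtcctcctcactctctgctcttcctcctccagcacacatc
Reg3g (chr6:78468875-78469124, minus strand): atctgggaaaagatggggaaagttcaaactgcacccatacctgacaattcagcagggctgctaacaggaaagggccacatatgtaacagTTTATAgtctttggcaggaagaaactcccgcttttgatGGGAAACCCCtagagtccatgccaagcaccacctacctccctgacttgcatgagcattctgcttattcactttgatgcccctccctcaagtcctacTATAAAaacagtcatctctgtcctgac
Slpi (chr2:164356508-164356757, minus strand): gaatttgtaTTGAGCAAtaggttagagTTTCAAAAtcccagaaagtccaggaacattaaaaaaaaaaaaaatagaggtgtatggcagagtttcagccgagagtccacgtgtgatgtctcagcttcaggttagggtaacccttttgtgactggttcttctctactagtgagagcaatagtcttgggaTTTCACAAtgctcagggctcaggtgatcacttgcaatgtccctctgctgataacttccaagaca

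RefSeq windows were found for 7 of the 9 measured members, these 6 and Cp. Cp had 2 windows, which are not shown, and a match in either was counted. The shares of all windows are per window. The C/EBP motif was present for 5 of the 7, namely Saa3, Lcn2, Slpi, Alb and Cp. The same motif occurs in 36.8% of all 32807 windows of this length, so a match is common. In Saa3 its closest match to the start, TTATGCAA, lies at bases -99 to -92, and in Alb 4 matches lie between bases -223 and -68. Agt had the STAT motif TTCCTGGAA at bases -172 to -164, a motif held by 7.02% of windows. Reg3g had the NF-κB motif GGGAAACCCC at bases -123 to -114, against 7.25% of windows. The half-site of the cyclic AMP response element was present in 0 of the 7, against 17.8% of windows, and the full site, which holds that half-site, also in 0, against 1.55%. The TATA box letters were present for 3 of the 7, Reg3g, Agt and Cp (window 2 only), against 12.4% of windows. A match is a description of letters, and its absence says only that these letters are not in these 250 bases.

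Saa3 encodes a serum amyloid A that is made outside the liver, in fat, macrophages and epithelia. Its level was 8.73, 8.48 and 8.68 on the DMSO arrays and 11.34, 11.37 and 11.47 on the FR arrays. The groups lay far apart, with 2.61 between the highest DMSO and the lowest FR array. The change was 2.76 (SE 0.09, 6.78-fold), and only 11 of the 19938 genes had a larger rise. Saa1, Saa2 and Saa4, its neighbours in the same gene cluster, were within background in both groups.

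Hp encodes haptoglobin, the plasma protein that binds free haemoglobin. It was at 7.35, 7.26 and 7.19 in DMSO and at 8.70, 8.87 and 8.85 in FR. All FR arrays were higher, by a change of 1.54 (SE 0.09, 2.91-fold). Orm1 encodes orosomucoid, an acidic plasma glycoprotein that carries lipophilic molecules. Its DMSO values of 5.50, 5.32 and 5.21 were within background, and its FR values were 6.20, 6.17 and 5.75. The change of 0.70 (SE 0.13) is at least 1.31-fold, with 1 of the 3 FR arrays still under the background mark. Orm1 lies beside the near-identical genes Orm2 and Orm3, so its probe set could share signal with theirs. The probe sets of Orm2 and Orm3 were within background in both groups, at means of 4.59 and 4.39 for Orm2 in DMSO and FR.

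Alb encodes albumin, the main carrier protein of plasma and a product of hepatocytes. It was at 6.07, 6.10 and 6.07 in DMSO and at 9.01, 8.60 and 8.98 in FR. The DMSO arrays were the tightest of any member, with an SD of 0.02, and FR replicate 2 was the lowest of the FR arrays. The change was 2.78 (SE 0.11, 6.88-fold). Cp encodes ceruloplasmin, the copper-binding ferroxidase of plasma. It was at 6.31, 6.12 and 6.18 in DMSO and at 6.20, 5.96 and 6.09 in FR. These ranges overlapped, and the change was -0.12 (SE 0.09). FR replicate 2, at 5.96, was under its background mark of 5.97, and low values are compressed. Among the measured members, only Cp had no separation of the groups.

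Agt encodes angiotensinogen, the precursor from which renin and angiotensin-converting enzyme release angiotensin peptides, and an acute phase gene of the liver. It was at 5.90, 5.81 and 6.60 in DMSO and at 9.11, 9.17 and 9.10 in FR. DMSO replicate 3 stood above the other DMSO arrays, and the FR arrays agreed to an SD of 0.04. The change of 3.03 (SE 0.17, 8.14-fold) was the 6th largest rise of all genes tested.

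Lcn2 encodes lipocalin-2, which captures the siderophores that bacteria use to take up iron. It was at 5.31, 5.04 and 5.68 in DMSO, where 2 of 3 arrays were under the background mark, and at 7.56, 7.74 and 7.81 in FR. The change was 2.36 (SE 0.14), and no fold is given because the DMSO mean lay below that mark. Reg3g encodes a secreted C-type lectin that binds Gram-positive bacteria and is best known from gut and injured skin. Its DMSO values of 5.26, 4.95 and 4.88 were within background, and its FR values were 8.06, 8.0 and 7.70. The measured change was 2.89 (SE 0.12), which is at least 4.82-fold against the background mark. Slpi encodes a secretory inhibitor of leukocyte proteases with antimicrobial activity. It was at 7.15, 7.21 and 7.50 in DMSO and at 10.02, 10.17 and 10.10 in FR, a change of 2.81 (SE 0.10, 7-fold). For all 3 defence genes each FR array lay above each DMSO array, by 1.88 or more.

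**Figure D1:**
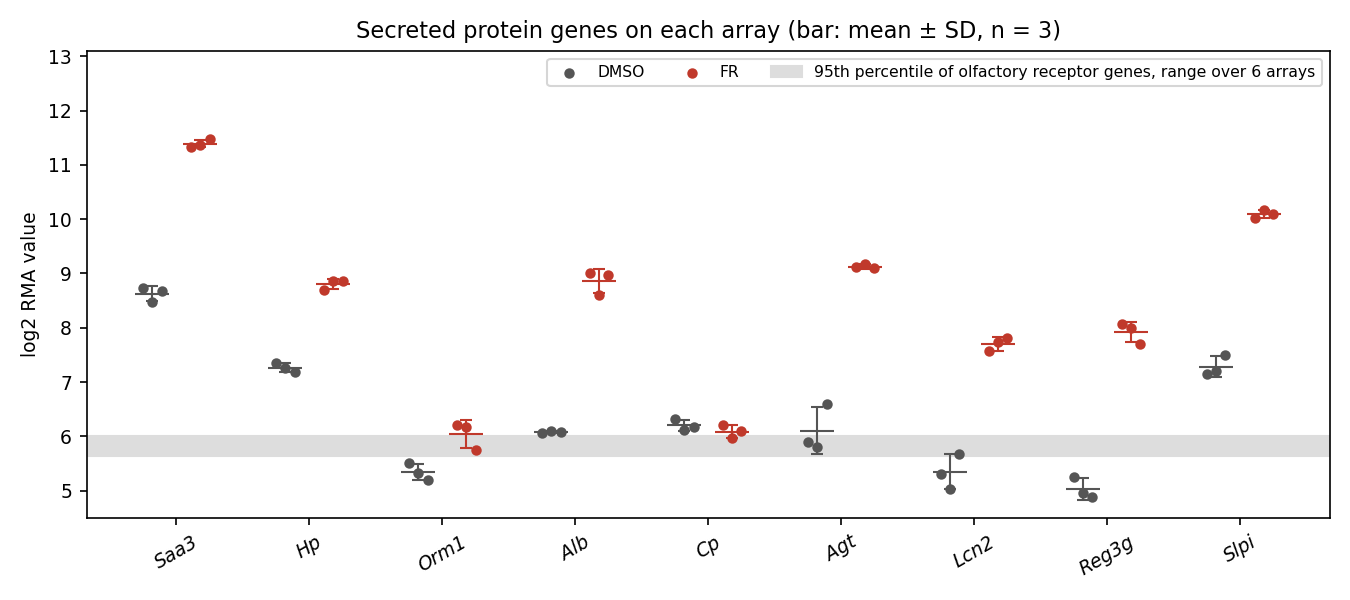
Log2 RMA values of the 9 measured members on the 3 DMSO (grey) and 3 FR (red) arrays, with mean and SD for each group (n = 3) and a grey band for the background mark. Only Cp overlaps between the groups, and Orm1, Lcn2 and Reg3g have DMSO means below the band.

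Of the 9 measured members, 7 had a log2 change of at least 1, a size that 1.63% of all genes tested reached upwards. Groups did not overlap, with FR higher, for 8 of the 9, against 23% of all genes. Since this contrast chose the members, these counts support nothing further. Over all genes 5559 passed an adjusted p of 0.05 (limma, Benjamini-Hochberg), 2671 higher and 2888 lower, so 48.0% of the calls were higher, and 35.3% were higher when each array was centred on its median. The median change was 2.76 over the measured members and 0.05 over all genes. Among the 6 members above 2, the changes spanned 0.67, against a median SE of 0.12 for each. Lcn2, at the low end of that span, had 2 of 3 DMSO arrays under the background mark, and Reg3g all 3. Low values are compressed, so the span does not measure how far the members differ in size of change.

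**Figure D2:**
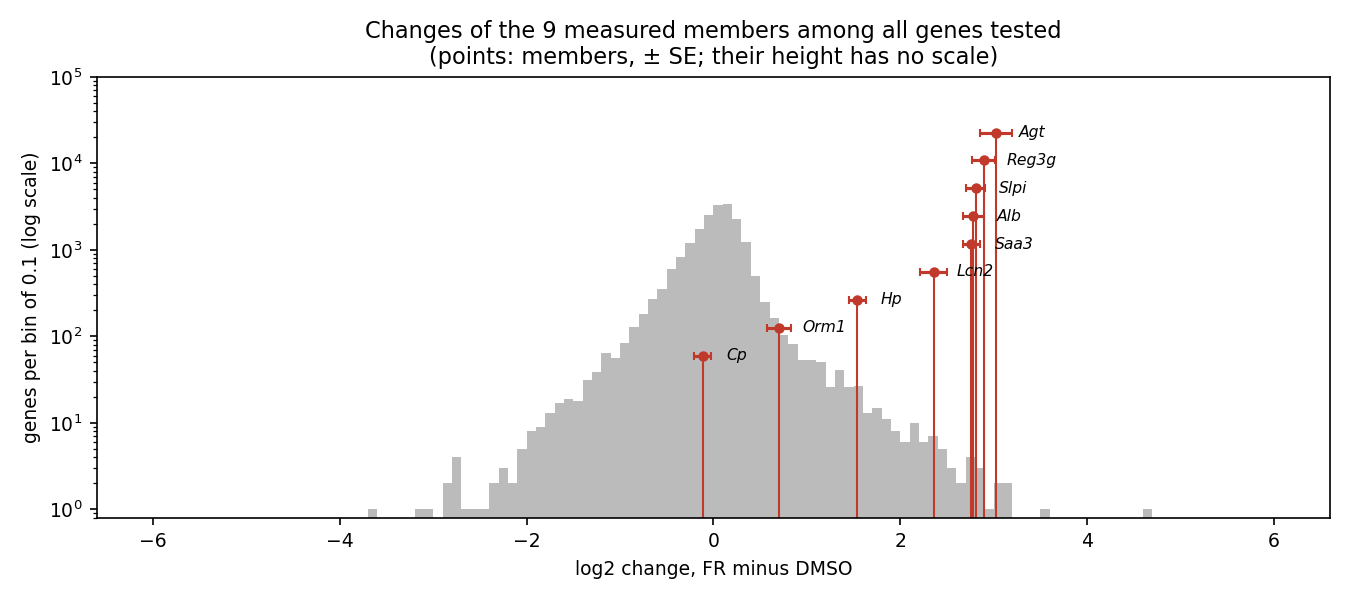
Histogram of the log2 change (FR minus DMSO) of all 19938 genes tested, with a logarithmic count axis, and the measured members marked with their SE. Cp sits near the middle at -0.12 and Agt lies farthest right at 3.03.

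Counts of genes that rose or fell are from here on at adjusted p under 0.05 (limma, Benjamini-Hochberg over all genes), a mark that 27.9% of all genes passed. The dermal identity of the culture was checked with 20 fibroblast markers, whose mean level was 10.26 to 10.29 on the DMSO arrays and 10.13 to 10.18 on the FR arrays. Of these, 7 rose and 9 fell (median change -0.22). The collagen gene Col1a2 fell by 1.57 and the fibronectin gene Fn1 by 1.14, while Lum, which encodes the matrix proteoglycan lumican, rose by 2.17. Hepatocyte markers were checked because several members are liver products. Of 22 measured, 18 were within background in both groups, 3 rose, of which 2 were within background in both groups, and 0 fell. Their mean level was 4.79 to 4.89 in DMSO and 4.97 to 5.12 in FR. The median change of these markers was 0.14, against 0.14 for the olfactory receptor genes. The fetal albumin relative Afp and the carriers Ttr and Ahsg were among those within background in both groups. The apolipoprotein genes Apoa1 and Apoa2 were above the background mark on every array. Apoa2 was at 7.19 in DMSO and 7.32 in FR and did not pass (adjusted p = 0.413). Apoa1 rose by 0.37 (adjusted p = 0.0412), a call lost in 9 of 13 alternatives. The liver factor gene Hnf4a was at 5.73 ± 0.07 in DMSO and 5.86 ± 0.24 in FR (SD, n = 3; change 0.13, adjusted p = 0.417). For Hnf4a, 2 of the 3 FR arrays were under the background mark. Keratinocyte markers moved beside the members: 20 of 25 rose and 0 fell (median change 0.61). Their mean level went from 5.94 to 6.04 in DMSO to 6.84 to 6.94 in FR. Of these 25, 6 were within background in both groups, 2 of the 20 that rose included. Of 17 adipocyte markers 12 rose and 0 fell (median change 0.76), from 6.10 to 6.12 in DMSO to 7.13 to 7.16 in FR. Of these 17, 3 were within background in both groups, 0 of the 12 that rose included. The part of either cell type in the members' levels was not tested. Of 20 macrophage and monocyte markers 13 were within background in both groups, 4 rose, of which 2 were within background in both groups, and 0 fell, from a mean level of 4.94 to 5.05 in DMSO to 5.08 to 5.23 in FR. Of 18 neutrophil markers 12 were within background in both groups, 7 rose, of which 3 were within background in both groups, and 1 fell. These 18 averaged 4.90 to 5.0 on the DMSO arrays and 5.18 to 5.32 on the FR arrays. Of 14 endothelial markers 8 were within background in both groups, 5 rose, of which 3 were within background in both groups, and 1 fell. These 14 averaged 5.43 to 5.44 on the DMSO arrays and 5.52 to 5.57 on the FR arrays. The gene that fell was Flt1, at least 3.27-fold and to within background in FR (change -2.12, adjusted p = 7.13e-08). Median changes were 0.16 for the macrophage and monocyte list, 0.19 for the neutrophil list and 0.18 for the endothelial list. The olfactory receptor genes had 0.14.

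Other acute phase genes raised by inflammation rose in 11 of 27 measured cases and fell in 0. Of the 27, 15 were within background in both groups, 4 of the 11 that rose included. The median change was 0.28, against 0.05 for all genes and 0.14 for the olfactory receptor genes. Steap4, a metalloreductase gene induced by inflammation in fat, rose 3.29-fold (6.95 ± 0.09 to 8.67 ± 0.07, adjusted p = 2.22e-07). Lbp, which encodes the plasma protein that hands bacterial lipopolysaccharide to CD14, rose 2.24-fold (adjusted p = 4.32e-05). Lrg1, a leucine-rich glycoprotein gene, was within background in DMSO and rose at least 2.01-fold (adjusted p = 6.25e-05). The protease inhibitor gene Serpina3n, which is close to other members of its family, rose by 0.98 and the interleukin-1 receptor antagonist gene Il1rn by 0.93. Saa2 had a change of 1.52 (adjusted p = 0.00125) and Saa1 one of 0.80 (adjusted p = 0.0104), but these probe sets were within background in both groups. The liver pentraxin genes Crp and Apcs did not pass, with changes of 0.07 and 0.09 within background.

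Of the genes of plasma proteins that inflammation lowers in the liver, 5 of 10 measured rose and 0 fell (median 0.32). The count was 3 with quantile normalization, with median centring, with cyclic loess, and without DMSO replicate 2, DMSO replicate 3 or FR replicate 3. Fetub, which encodes the liver protease inhibitor fetuin-B, was at 4.71, 5.41 and 4.82 in DMSO, within background, and at 7.58, 7.40 and 7.99 in FR. It rose at least 4.01-fold (change 2.68, SE 0.19, adjusted p = 2.26e-06). Igf1, the insulin-like growth factor gene, rose 2.73-fold (7.70 ± 0.08 to 9.15 ± 0.12, adjusted p = 1.12e-06). The retinol carrier gene Rbp4 rose at least 1.31-fold. The apolipoprotein gene Apoa1 had a change of 0.37 (adjusted p = 0.0412), a call lost in 9 of 13 alternatives (adjusted p from 0.0045 to 0.13). F12 had a change of 0.32 (adjusted p = 0.0295), with 2 of the 3 FR arrays under the background mark.

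Among other antimicrobial and epithelial defence genes 11 of 39 rose and 0 fell. The median change was 0.15, against 0.14 for the olfactory receptor genes. Most of this list, 31 genes, was within background in both groups, 4 of the 11 that rose included. Wfdc12, which like Slpi encodes a small protein with a whey acidic protein domain, rose 4.90-fold (6.28 ± 0.10 to 8.57 ± 0.03, adjusted p = 5.1e-08). Reg1, a lectin gene of the same family as Reg3g, was within background in DMSO and rose at least 2.34-fold (adjusted p = 5.42e-06). Reg3b, another antibacterial lectin gene of the family, was within background in both groups (4.43 to 4.56, change 0.13, adjusted p = 0.336). S100a8 and S100a9, which encode the subunits of the metal-binding protein calprotectin, rose at least 1.72-fold and 1.61-fold from background (adjusted p = 3.15e-06 and 0.000143). The cathelicidin gene Camp rose by 0.89. Calprotectin and cathelicidin are also neutrophil products and S100a8 is raised in stressed keratinocytes, and the part of those cells was not tested.

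The list of secretory protease inhibitors, a wider group around Slpi whose products are not all secreted, split: 11 of 32 rose and 6 fell (median 0.20). Serpinb2, which encodes a plasminogen activator inhibitor, rose 2.21-fold (6.07 ± 0.18 to 7.21 ± 0.19, adjusted p = 4.11e-05), and Serpinb5, an epithelial serpin gene, rose at least 1.35-fold from background. Stfa3 had a change of 1.40 within background (adjusted p = 2.44e-05). Tfpi2, the gene of a matrix-bound Kunitz inhibitor, fell by 1.08 (7.07 ± 0.13 to 5.99 ± 0.08, adjusted p = 1e-05), and the abundant inhibitor genes Cst3 and Timp1 fell by 0.47 and 0.44.

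Of the complement genes other than C3, 7 of 34 rose and 1 fell (median 0.12). Of the 34, 19 were within background in both groups, 2 of the 7 that rose included. Cd55, which encodes a membrane protein that speeds the decay of the C3 convertase, rose 2.50-fold (8.80 ± 0.07 to 10.12 ± 0.32, adjusted p = 4.24e-05). Clu, the gene of the secreted chaperone and complement inhibitor clusterin, rose 1.85-fold and Masp1, a lectin pathway protease gene, 1.61-fold. The complement receptor gene Cr2 had a change of 0.83 within background. The single fall was that of C2, a convertase subunit gene, by 0.67 (adjusted p = 0.000176), with 2 of the 3 FR arrays under the background mark. The acute phase complement genes Cfb and C4b had changes of -0.15 and -0.06 that did not pass (adjusted p = 0.321 and 0.715). C4b was within background in FR.

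The regulators known to act on these genes were taken next. Cebpa, a C/EBP factor gene of liver and fat, was at 7.40, 7.63 and 7.54 in DMSO and at 9.50, 9.49 and 9.34 in FR. It rose 3.78-fold (change 1.92, SE 0.09, adjusted p = 1.76e-07). Cebpd rose 1.31-fold (8.26 ± 0.03 to 8.64 ± 0.03, adjusted p = 0.00388). Cebpb had a change of 0.31 (adjusted p = 0.0348), which missed the threshold when DMSO replicate 1 (adjusted p = 0.13), DMSO replicate 2 (0.0941) or FR replicate 2 (0.106) was left out, with the replicate block (0.0555) and with median centring (0.0819), over a range of 0.0115 to 0.13. Nfkbia, the gene of the NF-κB inhibitor that NF-κB itself induces, rose 1.86-fold (adjusted p = 2.96e-05). Nfkbiz, whose product is a nuclear cofactor that NF-κB needs at Lcn2, fell by 0.52 (8.25 ± 0.08 to 7.73 ± 0.13, adjusted p = 0.00183). The decoy receptor gene Il1r2 rose 2.20-fold, the toll-like receptor genes Tlr2 and Tlr4 fell by 0.66 and 0.68, and the glucocorticoid-responsive gene Fkbp5 fell by 0.84. Over the C/EBP, NF-κB and interleukin-1 list 10 of 35 rose and 9 fell, with a median of 0.02.

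In the interleukin-6 and STAT3 list 8 of 23 rose and 2 fell (median 0.10). The count of rises was 5 with median centring and also without any one of DMSO replicates 1, 2 and 3 or of FR replicates 1 and 2. The falls numbered 4 with median centring and with the variance trend. Il6 itself had a change of 0.15 (7.36 ± 0.09 to 7.51 ± 0.27, adjusted p = 0.391) and passed only without FR replicate 2 (0.0453), over a range of 0.0453 to 0.779. The receptor gene Il6ra had a change of -0.05 (adjusted p = 0.76). Stat3 had a change of -0.23 (9.63 ± 0.06 to 9.40 ± 0.11, adjusted p = 0.0766) and passed with median centring (0.0441) and with the variance trend (0.02), over a range of 0.02 to 0.22. Socs3, the feedback inhibitor gene that STAT3 induces, rose 1.49-fold (8.26 ± 0.09 to 8.84 ± 0.10, adjusted p = 0.000748), and its other probe set rose by 0.41. Lifr, a receptor gene for cytokines of the interleukin-6 family, rose 1.61-fold. Tyk2, a kinase gene of the pathway, and Pias3, which encodes a STAT3 inhibitor, fell by 0.43 and 0.46 (adjusted p = 0.0117 and 0.00288).

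The angiotensin receptor genes Agtr2 and Agtr1a rose beside Agt. Mas1, on the same list, was within background in both groups (change 0.02). Agtr2, the type 2 receptor gene, was at 9.18, 9.14 and 9.24 in DMSO and at 11.64, 11.60 and 11.60 in FR. It rose 5.38-fold (change 2.43, SE 0.08, adjusted p = 2.67e-08), with SDs of 0.05 in DMSO and 0.03 in FR. Agtr1a, a type 1 receptor gene, was at 7.24, 7.55 and 7.40 in DMSO and at 8.93, 8.93 and 8.91 in FR, a rise of 2.89-fold (adjusted p = 9.46e-07). Enpep, which encodes the aminopeptidase that trims angiotensin II, was within background in DMSO and rose at least 4.33-fold (5.43 ± 0.07 to 7.77 ± 0.18, adjusted p = 9.7e-08). Of the other peptidase genes on the list, Rnpep fell by 0.72 (adjusted p = 0.000119), Anpep by 0.70 (adjusted p = 0.000519) and Mme by 0.49, while the neurolysin gene Nln rose by 0.44 (adjusted p = 0.0114). The protease gene Ctsg passed with a change of 0.32 (adjusted p = 0.0423) but was within background in both groups. Ace, the converting enzyme gene, had a change of -0.32 (adjusted p = 0.0201), which missed the threshold when DMSO replicate 3 (adjusted p = 0.0901), FR replicate 2 (0.0534) or FR replicate 3 (0.0551) was left out, over a range of 0.0102 to 0.0901. In all, 5 of 16 renin-angiotensin genes rose and 5 fell (median 0.07), Atp6ap2 among the falls (change -0.54, adjusted p = 0.00224). The renin gene Ren1 is not analysed here.

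**Figure D3:**
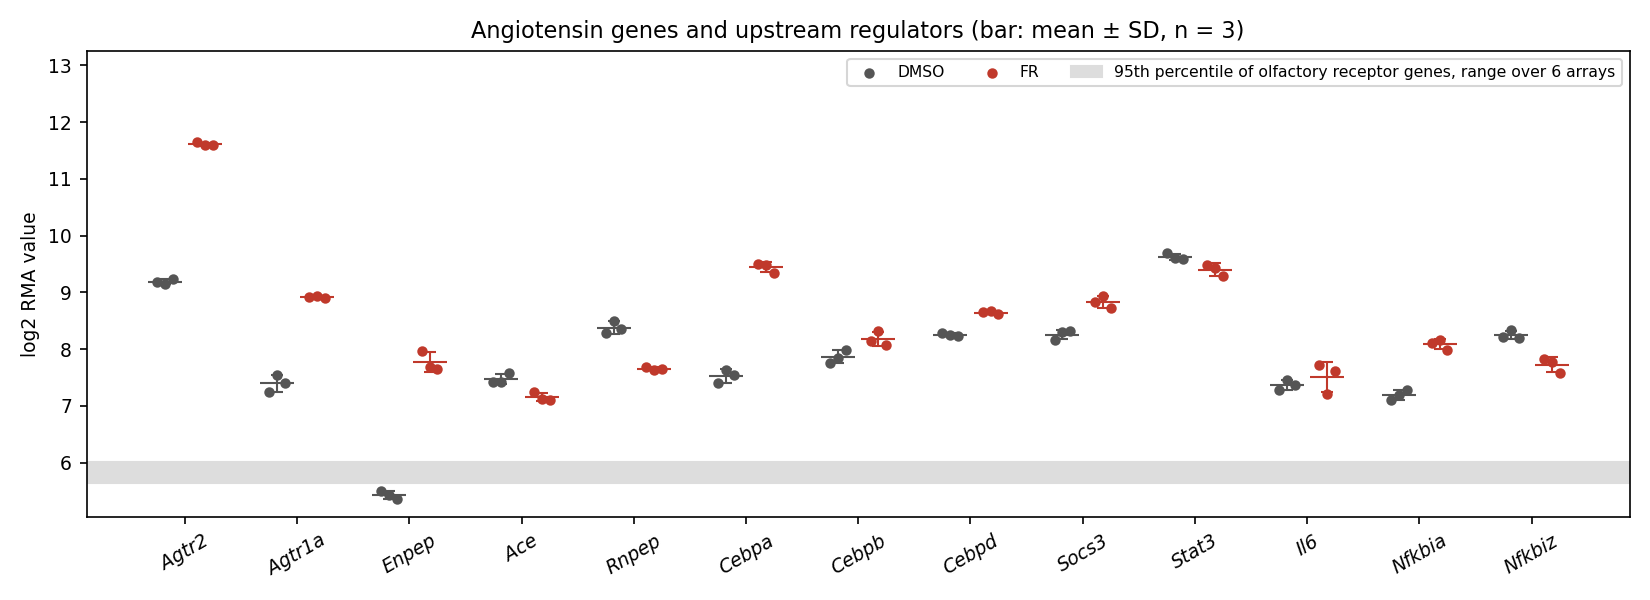
Log2 RMA values of angiotensin pathway genes and of regulators of acute phase genes on the 3 DMSO (grey) and 3 FR (red) arrays, with mean and SD (n = 3) and the background mark as a grey band. Agtr2, Agtr1a, Enpep and Cebpa stand clearly higher in FR, Rnpep and Nfkbiz lower, and the groups of Il6 overlap.

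Receptors and handling partners of the secreted proteins rose in 4 of 28 cases and fell in 7 (median 0.07). Slc22a17, a lipocalin-2 receptor gene, rose by 0.50 (adjusted p = 0.0111), while Lrp2, the other such receptor gene, was within background in both groups. Extl3, which encodes a receptor for Reg3 lectins, fell by 0.42 (adjusted p = 0.00756). Cd163, the haptoglobin receptor gene of macrophages, was within background in both groups. Hmox1, which encodes the enzyme that breaks down haem, fell by 0.94 (10.19 ± 0.06 to 9.25 ± 0.10, adjusted p = 1.65e-05). The ferritin genes moved apart: the light chain gene Ftl1 fell by 0.53 (adjusted p = 0.000697) and the heavy chain gene Fth1 rose by 0.36 (adjusted p = 0.00555). The scavenger receptor gene Cd36, which is also an adipocyte marker, rose at least 1.58-fold from background (change 2.28, adjusted p = 1.44e-06), and Scarb1, another receptor that takes up serum amyloid A, fell by 0.41. Anxa2, an annexin gene, fell by 0.59 (adjusted p = 0.000262).

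**Figure D4:**
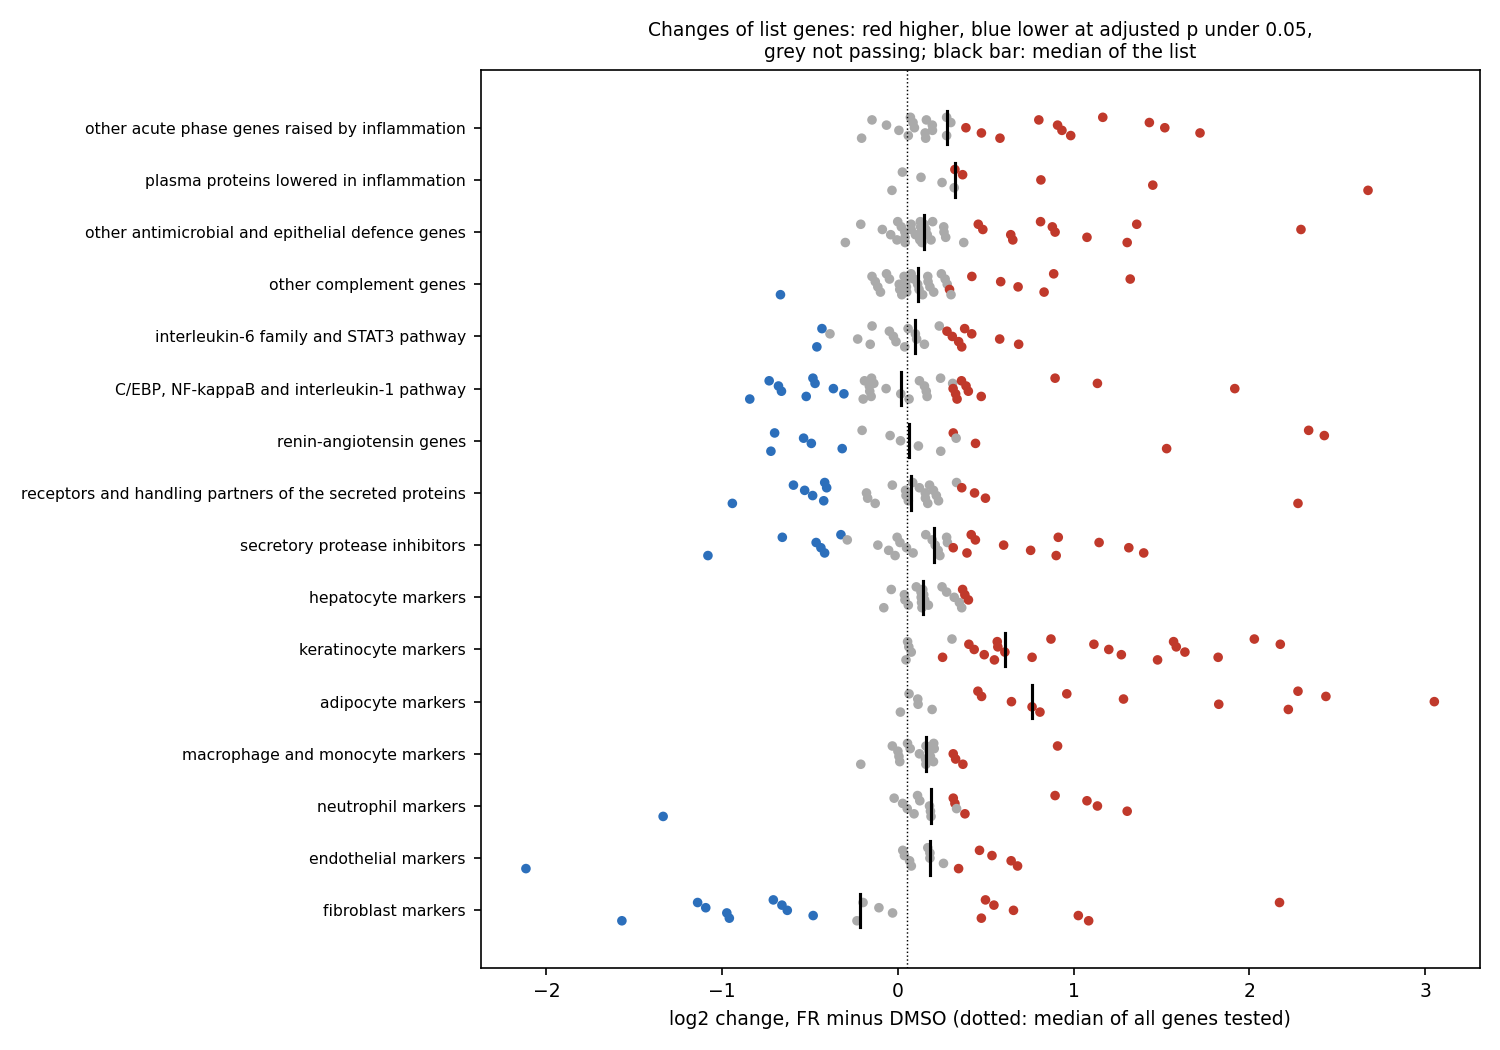
Log2 change (FR minus DMSO) of each gene in the 9 pathway lists and 7 marker lists, red where higher and blue where lower at adjusted p under 0.05, with a black bar at the median of each list. The lists of acute phase, plasma protein and defence genes hold 11, 5 and 11 rises with 0 falls. Of their genes, 15 of 27, 4 of 10 and 31 of 39 were within background in both groups. The renin-angiotensin list holds 5 rises and 5 falls, with 3 of 16 genes within background in both groups.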

How the data were processed

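Total RNA of 6 samples was hybridised to one-colour Affymetrix arrays. The deposited log2 values were computed by the authors with RMA from the oligo package, per the submitters' processing notes, and the versions are not given in the sources used here. This method usually subtracts background and normalizes between arrays, so a scanner-level correction could not be repeated and low values are compressed. Array medians lay between 5.98 and 6.07. Probe sets with 1 gene symbol in the platform annotation were used (21789 of 35556), the brightest for each gene. Groups came from the sample titles. limma 3.58.1 in R 4.3.3 (lmFit, eBayes, two-sided, all 6 arrays) was fitted to all 19938 genes, with p-values adjusted over them by Benjamini-Hochberg (threshold 0.05), and was tested on simulated data. The number of arrays limits the precision.

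The members, lists and rules were chosen with earlier results of these data known. Named genes are the members, up to 4 genes of each pathway list with the largest change (passing genes with separate groups), and 17 fixed genes, of which 1 was not analysed; further list genes were named after their values were seen. Alternatives were 3 between-array normalizations, leaving out dim genes, the mean of probe sets, a variance trend with robust moderation, the replicate block, and leaving out each array. Slide and scan batches were not analysed here. Promoter windows are from RefSeq (GRCm38.p6).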

Additional observations from a re-analysis of the deposited data

How the results depend on the processing

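Over the 13 alternatives the change of Agt lay between 2.88 and 3.27 and that of Lcn2 between 2.21 and 2.53. The change of Orm1 lay between 0.60 and 0.85 and that of Cp between -0.18 and -0.05. In each alternative 7 members had a change of at least 1. Leaving out dim genes, the mean of probe sets, the variance trend and the replicate block could not move a member's change. Those alternatives therefore say nothing about how stable the members are. The number of genes passing lay between 4033 and 5914 when 1 array was left out. Same-numbered arrays did not deviate together (r of -0.07, 0.05 and -0.03 between their deviations from group means). With 3 arrays a group, this cannot show whether same-numbered arrays came from a shared culture or litter. With the replicate block 4977 genes passed. Of 10 plasma proteins lowered in inflammation 5 passed, against 3 with quantile normalization, 3 with median centring and 3 with cyclic loess, and 3 to 5 when 1 array was left out; the cause was not tested. Of the tested named genes, calls were lost in 17 cases and gained in 4 of 610. The background correction and a slide block were not run, since the values at hand are already summarised.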
